A study of Mus musculus with 24 samples.

Results

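The comparison described here is that between PE-treated MRL and PE-treated B6 quadriceps muscle, 3 libraries against 3. These 6 of the 24 libraries of the series were chosen by the treatment in their labels, and each of the 14159 rows of the deposited table that carries a gene symbol was compared. The series measured bulk RNA of mouse quadriceps in 8 groups of 3 libraries to follow immune and metabolic genes during muscle repair in both strains. In the PE groups a piece of the mid-belly of the quadriceps was cut out, an injury called volumetric muscle loss, and the gap was filled with a powder of ultra-high-molecular-weight polyethylene (PE). The other injured groups received saline or decellularized extracellular matrix (ECM) in the same gap, and the remaining groups were uninjured. All mice were females, injured mice were operated on at 6 to 8 weeks of age, and the whole injured quadriceps was frozen 21 days post-injury. B6 denotes C57BL/6 and MRL denotes MRL/MpJ. These are separate inbred strains that differ across the genome, so no strain difference can be tied to a single locus, and the MRL mice carried no engineered allele.

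Tissue has no enzyme that breaks down PE particles. Macrophages gather around them, release interleukin-1 and chemokines that draw in neutrophils, and fuse into foreign body giant cells, while fibroblasts lay down collagen around the implant. Adipocytes can also fill injured muscle, where they make fatty acids from acetyl-CoA, store them as triglyceride in lipid droplets and secrete hormones such as leptin and adiponectin. MRL mice are known for closing ear wounds with little scar.

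Levels are given as log2 CPM (read counts relative to the size of each library, on a log2 scale), the 3 B6 and then the 3 MRL libraries in the order of replicates 1, 2 and 3. All libraries gave -3.65 for a count of 0. Such a 0 allows 3 counts at most, which at the mean effective library size (25149678 reads) is 0.119 CPM or a log2 CPM of -2.33, counting error alone considered. Fold changes are MRL minus B6 on the log2 scale with the standard error (SE), and genes with an adjusted p under 0.05 were called (limma on all 24 libraries, Benjamini-Hochberg over all genes). "Rose" and "fell" refer to MRL relative to B6 mice and are used of called genes only.

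The 7 markers of skeletal muscle fibres were present in all 6 libraries, with a summed level of 87386, 44474 and 96304 CPM in B6 and 100770, 25951 and 100240 CPM in MRL mice. Replicate 2 of each strain was the lowest in its group. Replicate 2 of the PE-treated MRL mice stood apart from the other 2 MRL libraries. Its correlation with them across genes was 0.812 and 0.827 (Pearson, log2 CPM), against 0.966 between the other 2 and 0.938 to 0.976 among B6 mice, and it held the fewest fibre transcripts of the 6. Library weights estimated from all genes were 0.094 for it, 1.66 and 1.81 for MRL replicates 1 and 3, and 5.93, 0.396 and 1.25 for the B6 mice. Results that moved with it are therefore also given without MRL replicate 2. It was singled out from these same values, so calls without it are no independent support, and they rest on 2 MRL libraries. MRL replicate 1 stood out too. It read -0.90 for the macrophage gene Mmp12 and 1.94 for Gpnmb, below uninjured MRL mice (4.83 to 5.42 and 4.60 to 5.08). For Cd68 it read 3.07, above them (2.04 to 2.90). MRL replicate 3 read 5.53 for Mmp12, above uninjured and below saline-treated MRL mice (5.80 to 6.28). Fits without MRL replicate 2 rest on these libraries, and which MRL library is typical of PE was not tested. In bulk samples, fewer cells of a type and less RNA per cell cannot be told apart.

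Between PE-treated MRL and B6 muscle 474 genes were called, 227 higher and 247 lower in MRL mice, which is 3.35% of all genes, 1.60% higher and 1.74% lower. The levels of the groups did not overlap for 2476 genes (17.5%), among them 450 of the 474. Leaving out MRL replicate 2 raised the count to 3490 genes (24.6%), of which 1500 (10.6%) were higher and 1990 (14.1%) lower, and 471 of the 474 were among them. Leaving out any other library of the 6 gave between 234 and 316 calls. Fitting the 6 libraries alone, without the spread of the other groups, gave 113 calls. With replicate number as a block, which pairs same-numbered mice, 1136 genes (8.02%) were called, 464 higher (3.28%) and 672 lower (4.75%), and these included all 474. That pairing was drawn from the values of these same libraries, so calls with the block are no independent support. A core of 187 genes was called with all libraries and in each of the 6 fits that left out 1 library.

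**Figure D1:**
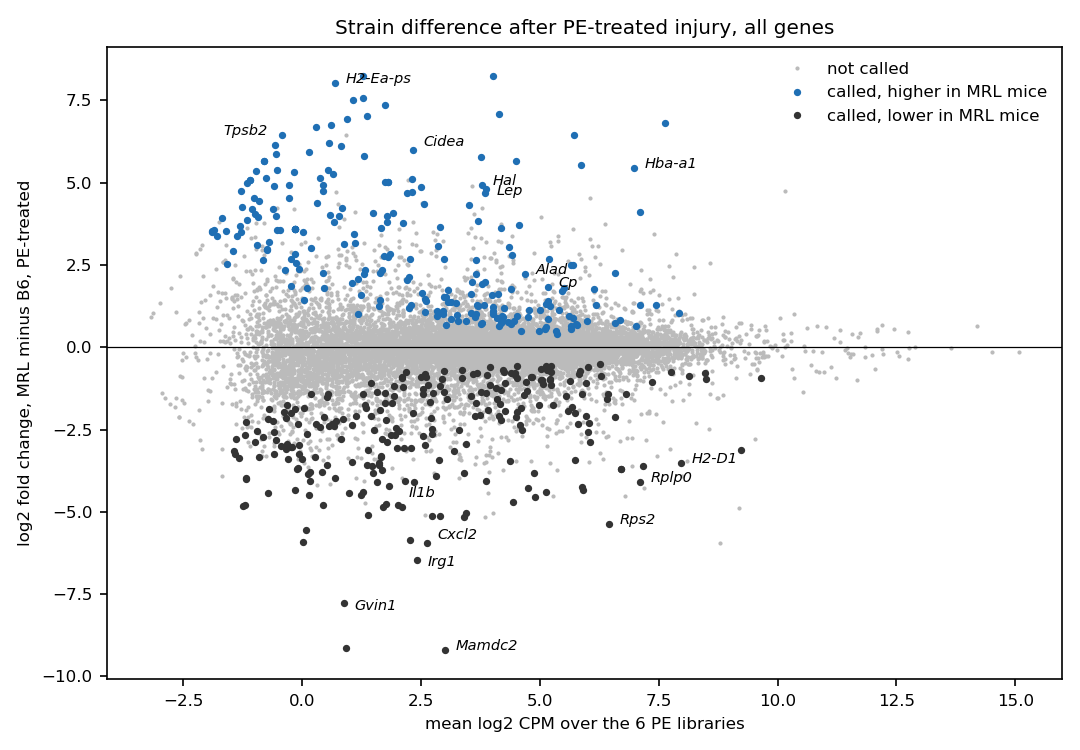
Log2 fold change of PE-treated MRL minus PE-treated B6 muscle (vertical axis) against the mean log2 CPM of the 6 libraries (horizontal axis) for 14159 genes, 1 point per gene. Blue points are the 227 genes called higher and dark points the 247 called lower in MRL mice. The largest differences lie at low and middle levels, with Rps2 and H2-D1 among the called genes of high level.

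The same strain comparison was made in the other treatments, which share no library with it. It called 356 genes with saline (2.51%, of which 1.07% higher and 1.45% lower), 376 with ECM (2.66%, 1.27% and 1.38%) and 368 in uninjured muscle (2.60%, 1.35% and 1.25%). Of the 474 genes called with PE, 239 were also called with saline (50.4% of the PE calls and 67.1% of the saline calls), 241 with ECM (50.8% and 64.1%) and 198 in uninjured muscle (41.8% and 53.8%). The direction was the same for all of these except Slc4a1 in uninjured muscle. In all 4 treatments 178 genes were called, and 198 of the PE calls, 101 higher and 97 lower, were called in no other treatment. Symbols of predicted genes, clones and pseudogenes made up 23% of the PE calls against 5.93% of all genes, and they were 78 of the 178 genes called in all treatments and 13 of the 198 called with PE alone.

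A call in 1 treatment and not in another is no test of a difference, so the strain differences were compared directly. Between PE and saline, 0 genes were called by limma (0%) and 614 had an unadjusted p under 0.05. Between PE and ECM it was 0 genes (0%) and 522. Against uninjured muscle 3 genes were called (0.0212%) and 1652 had an unadjusted p under 0.05. Leaving out MRL replicate 2, the counts were 625 genes against saline (4.41%), 269 against ECM (1.90%) and 1354 against uninjured muscle (9.56%). The count of genes whose strain difference with PE differed from that in another treatment thus rested on MRL replicate 2.

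Several genes of large change were called in every fit that left out 1 library, and some of these were called with PE alone. Of the core of 187 genes, only 20 were called in no other treatment, and the rest were called in at least 1 other. Mamdc2, a gene of an extracellular matrix protein (chromosome 19, 23279973 to 23425886), stood at 7.49, 8.35 and 6.97 in B6 and -3.65, 2.48 and -3.65 in MRL mice. MRL replicates 1 and 3 had no counts, MRL replicate 2 lay between the groups, and all B6 libraries were far above. The log2 fold change was -9.21 (SE 1.16, adjusted p = 3.1e-05), and it was -1.39 with saline (adjusted p = 0.664), -3.75 with ECM (0.112) and -4.03 in uninjured muscle (0.0823). The PE difference minus the saline difference was -7.82 (SE 1.65, adjusted p = 0.988) and, without MRL replicate 2, -9.87 (adjusted p = 5.9e-05).

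Slamf7, a receptor of natural killer cells and activated macrophages, and Mcoln3, a calcium channel of endosomes, also fell in every fit. Slamf7 read 5.68, 6.78 and 5.45 in B6 and -1.50, 4.51 and -0.21 in MRL mice. Every MRL library was below every B6 library, with MRL replicate 2 closest to them, and the log2 fold change was -5.03 (SE 0.95, adjusted p = 0.00344). Mcoln3 read 2.78, 3.35 and 2.34 against -3.21, 0.51 and -3.21. It was likewise lower in all 3 MRL libraries, with a log2 fold change of -4.79 (SE 0.93, adjusted p = 0.00435), and neither gene was called with saline (-1.48 and 0.21, adjusted p = 0.534 and 0.955). Vsig8 and Mrgpra2b changed in the same direction, at -5.85 (SE 1.14, adjusted p = 0.00455) and -4.42 (SE 0.70, adjusted p = 5.5e-04).

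Other genes differed in all 4 treatments. Gvin1, an interferon-inducible very large GTPase (chromosome 7, 105755763 to 105814533), stood at 4.38, 5.33 and 4.61 in B6 and -3.65, -1.72 and -3.65 in MRL mice. The B6 libraries were high and close together, and the MRL libraries were at or near 0. Its log2 fold change of -7.78 (SE 0.62, adjusted p = 7.5e-08) with PE lay beside -7.91 with saline (adjusted p = 5.2e-08), -5.09 with ECM (2.1e-05) and -6.87 in uninjured muscle (3.9e-07). Rnaset2b, Trim12a and Rab6b fell with PE, at -5.12, -4.85 and -3.05 and in each other treatment too. In the opposite direction, Rps3a2, an annotated processed pseudogene of a ribosomal protein (chromosome 14, 88360453 to 88361244), read -2.91, -3.65 and -1.97 in B6 and 5.19, 5.93 and 5.08 in MRL mice, with no overlap and a log2 fold change of 8.25 (SE 0.54, adjusted p = 5.6e-09). Hal, the enzyme that deaminates histidine, was high in all 3 MRL libraries (5.63, 7.68 and 5.46 against 0.08, 2.36 and 1.52 in B6 mice) and rose by 4.94 (SE 0.72, adjusted p = 1.9e-04). Genes with near-identical copies, such as Rps3a2, Gvin1 and the major urinary protein genes Mup9 and Mup18, are uncertain, since reads can be split among copies.

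**Figure D2:**
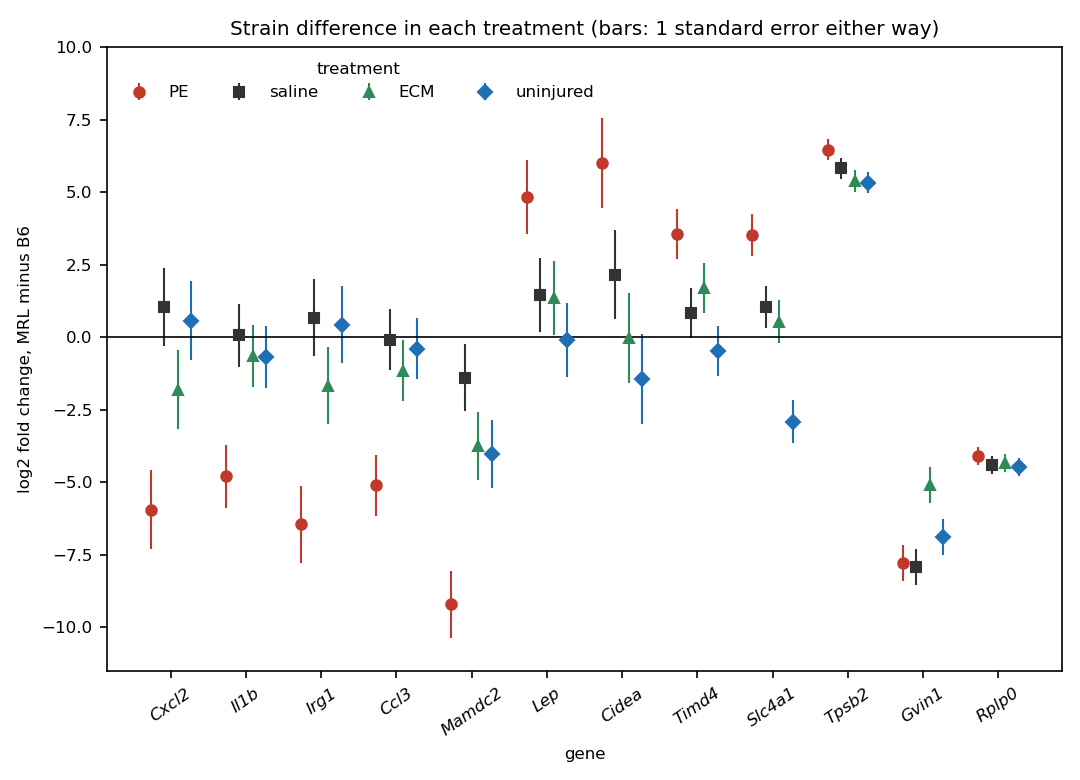
Strain difference (MRL minus B6, log2) with its SE as a bar, for 12 genes in PE-treated, saline-treated, ECM-treated and uninjured muscle. Gvin1, Tpsb2 and Rplp0 keep their direction in all 4 treatments, while Cxcl2, Il1b, Irg1, Ccl3 and Mamdc2 lie lowest with PE and Slc4a1 is above 0 with PE and below 0 in uninjured muscle.

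Part of the genes of inflammatory cytokines and myeloid activation fell in PE-treated MRL muscle. Of 35 measured members, 10 fell, 0 rose and 25 did not pass the test, beside 1.74% of all genes called lower, and the median log2 fold change was -1.89 against -0.02 over all genes. With saline, ECM and no injury, 0, 1 and 0 members were called lower (limma, with 0, 6 and 1 at an unadjusted p under 0.05), beside 1.45%, 1.38% and 1.25% of all genes. The medians there were -0.01, -0.92 and 0.03. Without MRL replicate 2, 27 members were called lower and the median was -3.41, beside 14.1% of all genes, and with the replicate block 20 were called, beside 4.75%.

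The 5′ windows of the chemokine genes Cxcl2 and Cxcl3 and of the prostaglandin synthase gene Ptgs2 are shown because these genes fell and each window holds a motif of a factor that is known to act on inflammatory genes. They are the 300 bases around the annotated start, most of them before it (RefSeq, GRCm38.p6, plus strand), the Cxcl2 window at chr5:90903649-90903948, the Cxcl3 window at chr5:90785851-90786150 and the Ptgs2 window at chr1:150099781-150100080. Capitals mark the NF-kB motif GGAATTTCC (reverse GGAAATTCC) in Cxcl2 and Cxcl3 and the C/EBP motif TTGCGCAA in Ptgs2.
Cxcl2: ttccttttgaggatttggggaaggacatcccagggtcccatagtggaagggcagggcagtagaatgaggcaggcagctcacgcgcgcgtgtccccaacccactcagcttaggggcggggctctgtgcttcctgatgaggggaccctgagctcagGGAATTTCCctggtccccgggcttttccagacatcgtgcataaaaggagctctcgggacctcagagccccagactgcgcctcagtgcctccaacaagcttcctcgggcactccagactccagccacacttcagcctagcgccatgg
Cxcl3: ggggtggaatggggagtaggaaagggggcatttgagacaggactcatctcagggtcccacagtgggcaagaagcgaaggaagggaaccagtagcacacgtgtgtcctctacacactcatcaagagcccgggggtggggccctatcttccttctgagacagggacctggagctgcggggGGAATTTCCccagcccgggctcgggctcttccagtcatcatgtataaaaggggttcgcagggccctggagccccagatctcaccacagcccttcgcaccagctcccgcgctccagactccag
Ptgs2: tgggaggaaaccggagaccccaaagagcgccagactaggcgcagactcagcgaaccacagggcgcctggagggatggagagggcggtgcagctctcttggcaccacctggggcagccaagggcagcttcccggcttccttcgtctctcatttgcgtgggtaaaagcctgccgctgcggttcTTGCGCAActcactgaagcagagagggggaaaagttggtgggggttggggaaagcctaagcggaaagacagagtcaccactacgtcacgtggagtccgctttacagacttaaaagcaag

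The motifs were searched on both strands of 32851 windows of this length, and the motifs and the genes shown were chosen after the values were seen. The NF-kB motif stood in 104 windows (0.317%) and the C/EBP motif in 60 (0.183%). Among genes with a window, the NF-kB motif was found in 49 of 10444 tested, in 3 of 174 called lower (Cxcl2, Cxcl3 and H2-DMb1) and in 0 of 116 called higher. The match began 96 bases before the start in Cxcl2, 72 in Cxcl3 and 69 in Ptgs2. A match of letters is a description and not a site of binding.

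Cxcl2, a chemokine that attracts neutrophils (chromosome 5, 91051730 to 91053797 on GRCm39), read 5.28, 7.01 and 4.49 in B6 and -3.65, 3.83 and -1.22 in MRL mice. MRL replicate 1 had no counts, MRL replicate 3 was low, MRL replicate 2 came within 1 log2 unit of the lowest B6 library, and the groups did not overlap. The log2 fold change was -5.94 (SE 1.36, adjusted p = 0.0173) and, without MRL replicate 2, -8.03 (adjusted p = 4.1e-05). The strain differences in the other treatments were 1.04 with saline (adjusted p = 0.806), -1.81 with ECM (0.602) and 0.57 in uninjured muscle (0.945). Minus the saline difference, the PE difference was -6.98 (SE 1.92, adjusted p = 0.988), or -9.07 (adjusted p = 0.00108) without MRL replicate 2. The call was lost without replicates 1 or 3 of the MRL mice or replicates 1 or 2 of the B6 mice, with an adjusted p of up to 0.145.

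Il1b, the gene of interleukin-1 beta, read 4.73, 5.79 and 2.71 in B6 and -1.64, 3.08 and -2.61 in MRL mice. MRL replicate 2 lay above the lowest B6 library, so the groups overlapped, and the other MRL libraries were low. It fell, at -4.80 (SE 1.08, adjusted p = 0.0151), or at -6.54 (adjusted p = 1.9e-05) without MRL replicate 2, and its call was lost without replicates 1 or 3 of the MRL mice or replicates 1 or 2 of the B6 mice (adjusted p up to 0.114). Irg1, the macrophage enzyme that makes itaconate, read 5.70, 6.96 and 4.24 against -3.65, 3.87 and -2.67. The groups did not overlap, and Irg1 fell by 6.45 (SE 1.32, adjusted p = 0.00718), a call lost without replicates 1 or 3 of the MRL mice (adjusted p up to 0.0639). Ccl3, a monocyte chemokine, read 3.72, 5.02 and 3.06 against -2.67, 2.82 and -3.65 and fell by 5.10 (SE 1.05, adjusted p = 0.00771), again with no overlap, and was not called without replicates 1 or 3 of the MRL mice or replicate 2 of the B6 mice (adjusted p up to 0.0661).

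The other called members were Cxcl3 at -4.07 (SE 0.99, adjusted p = 0.0254), Ccl4 at -3.98, the prostaglandin synthase Ptgs2 at -3.06 (SE 0.72, adjusted p = 0.0207), the acute phase protein Saa3 at -5.13, the lectin receptor Clec4d at -5.17 and Il1a at -1.51. Each of these calls was lost without MRL replicate 1, B6 replicate 1 or B6 replicate 2, all but that of Ptgs2 without MRL replicate 3, and those of Saa3, Clec4d and Il1a also without B6 replicate 3, with adjusted p up to 0.308. Tnf read 2.66, 3.34 and 1.45 in B6 and -1.90, 2.34 and -1.25 in MRL mice. It overlapped through MRL replicate 2 and did not pass the test (-2.75 (SE 0.80, adjusted p = 0.0641)), but was called without that library (-4.05 (adjusted p = 1.0e-04)) and with the block (adjusted p = 0.009).

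Neutrophil genes showed the same ordering of libraries. Of 14 members, 5 fell and none rose, beside 1.74% of all genes called lower, with 0 higher and 8 lower at an unadjusted p under 0.05 (limma). The median was -1.89, and without MRL replicate 2 it was -2.42 with 10 called, beside 14.1% of all genes. S100a9, a subunit of calprotectin, read 4.20, 5.78 and 2.48 in B6 and -2.66, 2.48 and -1.67 in MRL mice. MRL replicate 2 equalled the lowest B6 library to 2 decimals and the other MRL libraries lay near or below the limit of a count of 0. S100a9 fell, at -4.77 (SE 1.03, adjusted p = 0.0114), S100a8 at -3.30 (SE 0.88, adjusted p = 0.0439), the triggering receptor Trem1 at -4.34 (SE 0.89, adjusted p = 0.00727) and the histidine decarboxylase Hdc at -2.65 (SE 0.59, adjusted p = 0.0139). These 4 calls were lost without MRL replicate 1 or 3 or B6 replicate 2, and without B6 replicate 1 that of Trem1 alone held (adjusted p up to 0.307). The granulocyte receptor Csf3r did not pass the test (-2.55 (SE 0.73, adjusted p = 0.0605)), but was called without MRL replicate 2 (-3.50 (adjusted p = 9.4e-04)) and with the block (adjusted p = 0.00701).

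**Figure D3:**
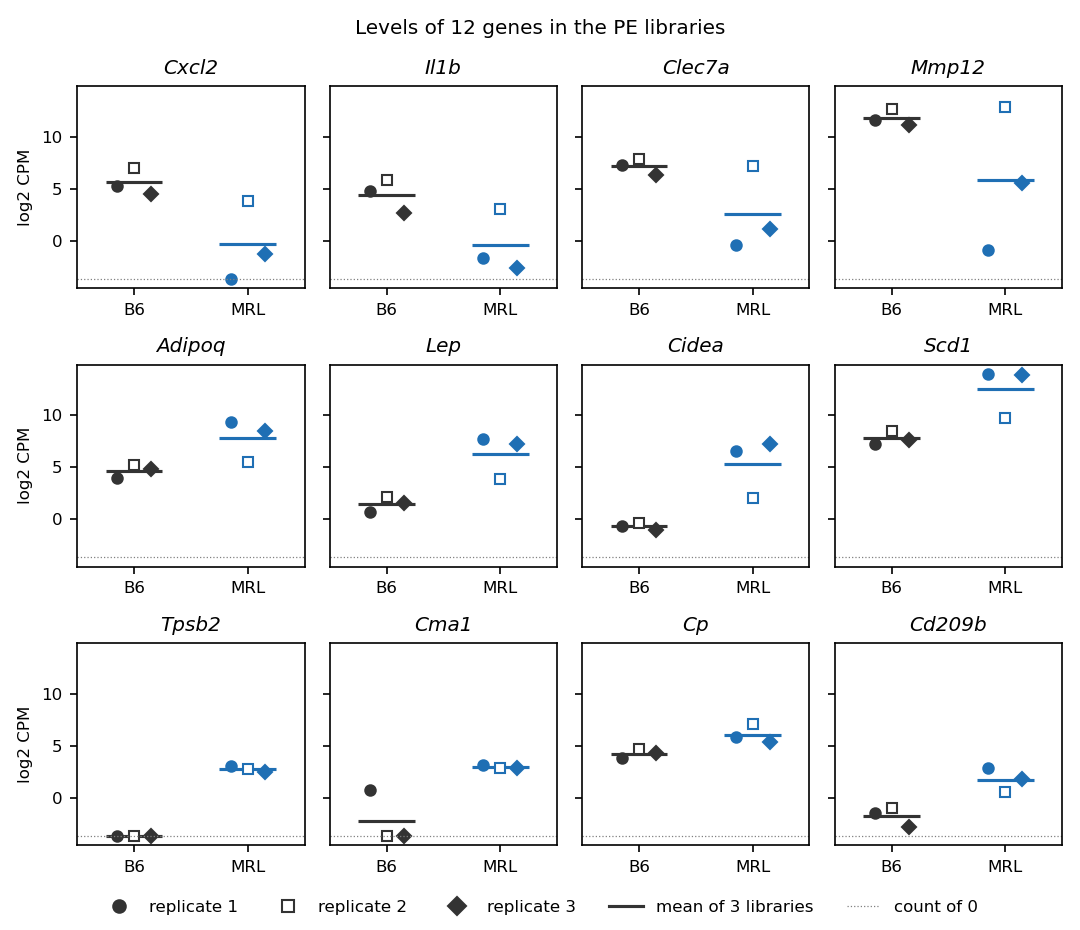
Log2 CPM of 12 genes in the 3 PE-treated B6 and 3 PE-treated MRL libraries, with a circle, an open square and a diamond for replicates 1, 2 and 3, a line at the group mean and a dotted line at a count of 0 (-3.65). MRL replicate 2 lies within or near the B6 libraries for Il1b, Clec7a, Mmp12, Adipoq and Scd1, while Tpsb2 and Cp separate the strains in all libraries.

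Macrophage genes differed among the MRL mice themselves, with MRL replicate 2 beside the B6 mice and the other MRL mice below them. Of 23 members, 1 fell (Clec7a), 0 rose, and all had a negative log2 fold change, with a median of -2.22, beside 1.74% of all genes called lower. At an unadjusted p under 0.05, 20 were lower. Without MRL replicate 2, 20 were called lower (median -3.42), beside 14.1% of all genes, and with the block 14, beside 4.75%.

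Clec7a, the receptor dectin-1, read 7.29, 7.88 and 6.31 in B6 and -0.45, 7.13 and 1.17 in MRL mice. MRL replicate 2 lay within the B6 range, so the groups overlapped, and it fell by 4.54 (SE 1.16, adjusted p = 0.0347) with a call that held in only 1 of 6 fits without a library, that without MRL replicate 2 (-6.80 (adjusted p = 3.5e-07)), and reached an adjusted p of 0.270 in the others. Cd68, a lysosomal protein of macrophages, read 7.66, 8.72 and 6.99 against 3.07, 8.84 and 3.35, and Emr1, the gene of F4/80, read 6.30, 7.34 and 5.79 against 3.26, 6.54 and 2.99. In both, MRL replicate 2 read like the B6 libraries and MRL replicates 1 and 3 lay below all of them. Neither passed the test (-2.71, adjusted p = 0.124, and -2.22, adjusted p = 0.103), and both were called without MRL replicate 2, at -4.58 (adjusted p = 1.7e-06) and -3.35 (adjusted p = 4.9e-04), and with the block (adjusted p = 0.0119 and 0.0227). The integrins Itgam, Itgax and Itgb2 were at -2.73, -4.52 and -3.29 (adjusted p = 0.121, 0.13 and 0.121) and at -4.56, -7.59 and -5.65 without MRL replicate 2 (adjusted p = 6.1e-06, 9.4e-06 and 5.3e-08), and were called with the block too (adjusted p = 0.0146, 0.0261 and 0.0117).

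Lipid-associated macrophage and lysosome genes include Trem2, a lipid receptor, and Gpnmb, a glycoprotein of lysosome-rich macrophages. Of 25 members, 1 fell and 0 rose, beside 1.74% of all genes called lower. Without MRL replicate 2, 18 were called lower and 1 higher, beside 14.1% and 10.6% of all genes. The gene called with all libraries was Fabp5, a fatty acid binding protein, which read 7.38, 8.34 and 6.75 in B6 and 4.13, 6.04 and 3.62 in MRL mice. All MRL libraries were below all B6 libraries, and it fell by 2.89 (SE 0.55, adjusted p = 0.00394) and was called in all 6 fits that left out 1 library. Trem2 read 7.69, 8.64 and 6.99 against 0.99, 9.25 and 2.60. MRL replicate 2 was the highest of the 6, the other MRL libraries were the lowest, and the log2 fold change was -3.49 (SE 1.28, adjusted p = 0.138), or -5.98 (adjusted p = 3.9e-06) without that library. Gpnmb read 11.36, 12.54 and 11.01 against 1.94, 12.63 and 5.69, with the same order of libraries, and its log2 fold change was -4.88 (adjusted p = 0.0844), or -7.82 (adjusted p = 1.7e-06) without it. Spp1, the gene of osteopontin, was at -4.27 (adjusted p = 0.159) and -7.01 (adjusted p = 3.7e-04). With the block, 12 members were called lower, beside 4.75% of all genes, among them Trem2, Gpnmb and Spp1 (adjusted p = 0.0261, 0.00914 and 0.0486).

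Genes of cell fusion and giant cells gave 0 calls among 32 by limma, with 11 lower and 0 higher at an unadjusted p under 0.05. In all, 19 were called lower and 1 higher without MRL replicate 2, beside 14.1% and 10.6% of all genes, and with the block 8 and 0, beside 4.75% and 3.28%. Dcstamp, a membrane protein needed for macrophage fusion, read 3.48, 3.85 and 2.64 in B6 and -3.65, 3.82 and -2.35 in MRL mice. It was within the B6 range in MRL replicate 2 and at or near 0 in the other MRL mice, at -4.05 (SE 1.24, adjusted p = 0.08) and, without that library, -6.33 (adjusted p = 1.4e-05) (with the block, adjusted p = 0.0187). Ocstamp, its relative in osteoclasts, stayed within a narrow range in all 6 libraries (0.94, 1.04 and -0.31 and 0.74, 0.90 and 0.72) at 0.23 (SE 0.36, adjusted p = 0.78), and the osteoclast phosphatase Acp5 was at 1.10 (SE 0.83, adjusted p = 0.502).

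Mmp12, the macrophage metalloelastase, had a wide spread, with 11.57, 12.60 and 11.11 in B6 and -0.90, 12.81 and 5.53 in MRL mice. MRL replicate 2 was the highest library and MRL replicate 1 the lowest. The log2 fold change was -5.95 (SE 1.96, adjusted p = 0.102), or -9.45 (adjusted p = 4.0e-05) without MRL replicate 2, and Mmp12 was called with the block (adjusted p = 0.0203). The PE-treated B6 libraries shared 1 first sequencing index, MRL replicates 2 and 3 shared another, and MRL replicate 1 carried the remaining one, so index and strain cannot be told apart. The 7 other libraries that shared the first index of MRL replicate 2, all from MRL mice, read 4.83 to 6.28 for Mmp12, MRL replicate 3 included. Uninjured muscle read 3.78 to 5.42 in the 4 libraries that shared an index with a B6 PE library or MRL replicate 2, and -0.59 to -0.04 in the 2 that shared none. The latter were B6 replicates 1 and 2 and the former were the 3 MRL mice and B6 replicate 3 (3.78), so sharing and strain were largely the same split. The part of index sharing in these levels was not tested.

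**Figure D4:**
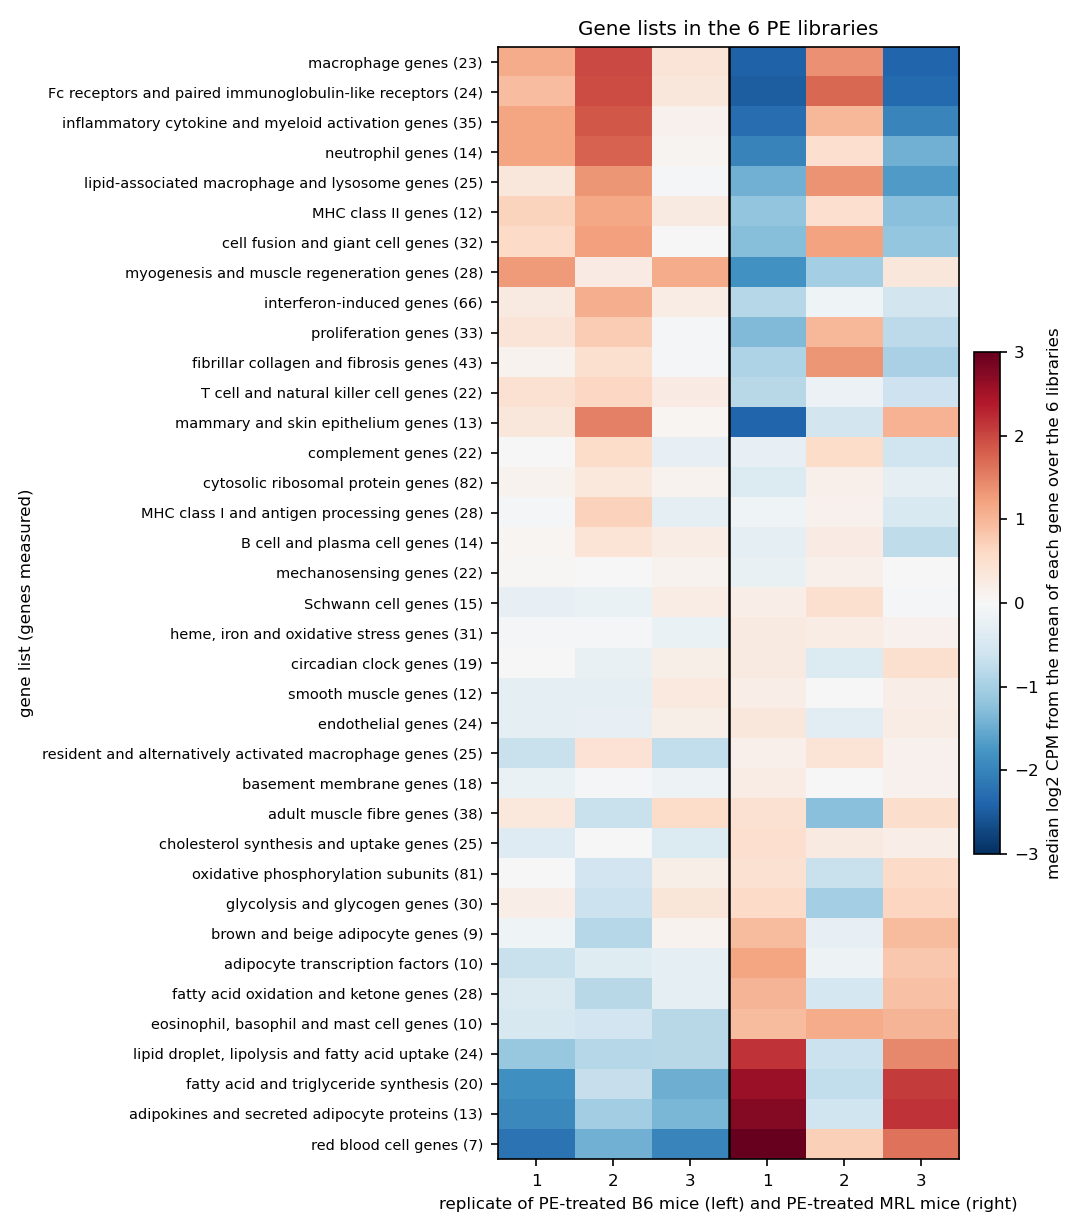
Median log2 CPM of the members of 37 gene lists in each of the 6 PE libraries, each gene taken from its own mean over the 6 libraries, with lists ordered by their median log2 fold change without MRL replicate 2. Macrophage, Fc receptor and inflammatory lists are low in MRL replicates 1 and 3 and not in MRL replicate 2, and adipocyte lists show the reverse order.

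Genes of resident and alternatively activated macrophages did not follow this order as a list, though single members such as Arg1 did. Of 25 members, 3 rose and 0 fell, with a median of 0.46, beside 1.60% of all genes called higher. The counts without MRL replicate 2 were 7 and 3, beside 10.6% and 14.1%. The risen genes were Timd4, a receptor for dying cells on resident macrophages, and the lectins Cd209b and Cd209d. Timd4 read -1.89, -1.77 and -3.13 in B6 and 2.06, 0.49 and 1.38 in MRL mice. Every MRL library was above every B6 library, MRL replicate 2 by the least, and Timd4 rose by 3.57 (SE 0.86, adjusted p = 0.024). Cd209b read -1.41, -0.97 and -2.80 against 2.89, 0.60 and 1.79 and rose by 3.49 (SE 0.81, adjusted p = 0.0197), and Cd209d rose by 2.82 (SE 0.67, adjusted p = 0.022). All 3 calls were lost without MRL replicate 1 or 3 or B6 replicate 1 or 3, with adjusted p up to 0.149.

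The genes most used as marks of alternative activation did not pass the test. Arg1, the arginase of such cells, read 1.40, 3.77 and 2.19 in B6 and -0.20, 1.54 and -0.22 in MRL mice, at -2.08 (SE 0.83, adjusted p = 0.178), and Chil3 was at -2.52 (SE 0.91, adjusted p = 0.133). Both were called lower without MRL replicate 2 (-2.67 and -3.31, adjusted p = 0.0368 and 0.016). Retnla was at 2.15 and 3.87 in replicate 2 of MRL and B6 mice and at or near 0 in the other libraries, at -0.98 (SE 2.52, adjusted p = 0.877). The mannose receptor Mrc1 was at -0.46 (SE 0.58, adjusted p = 0.713). The haptoglobin-hemoglobin receptor Cd163 read 2.66, 3.39 and 3.04 against 5.10, 4.29 and 4.54, with every MRL library above every B6 library, at 1.61 (SE 0.58, adjusted p = 0.133), and the lectin Mgl2 was at 1.56 (SE 0.55, adjusted p = 0.128) and 1.89 (adjusted p = 0.0287) without MRL replicate 2.

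Mast cell protease genes rose in PE-treated MRL muscle. Of 10 eosinophil, basophil and mast cell genes, 5 rose and 1 fell, beside 1.60% and 1.74% of all genes, and the fallen one was Hdc, which neutrophils also express. Tpsb2, a mast cell tryptase (chromosome 17, 25585170 to 25588079), had no counts in any B6 library and read 3.08, 2.82 and 2.52 in MRL mice. It was at least 58.9-fold higher against the limit of 3 counts per library (adjusted p = 1.3e-09). The other tryptase, Tpsab1, rose by 4.90 (SE 0.70, adjusted p = 1.4e-04). The pair are related genes, and whether reads were split between them was not tested. Their summed level was 0.0217, 0.14 and 0 CPM in B6 and 12.2, 12.1 and 7.89 CPM in MRL mice (exact permutation test, 2-sided p = 0.1, the smallest that 3 against 3 allows). Tpsb2 was called in the other treatments as well (adjusted p = 4.9e-09 with saline, 1.1e-08 with ECM and 1.7e-08 in uninjured muscle), and Tpsab1 in all but uninjured muscle (2.62, adjusted p = 0.0507). Of the 10 listed genes, 3 were called higher with saline, 3 with ECM and 1 in uninjured muscle, beside 1.07%, 1.27% and 1.35% of all genes, and 0 lower. The list medians there were 1.24, 0.11 and -0.34, against 1.38 with PE.

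Carboxypeptidase Cpa3 read 0.05, 0.19 and -1.64 in B6 and 3.14, 2.49 and 2.48 in MRL mice. No MRL library overlapped the B6 range, and it rose by 3.17 (SE 0.50, adjusted p = 4.4e-04) in every fit. The chymases Cma1 and Mcpt4 rose by 5.14 (SE 1.10, adjusted p = 0.0102) and 2.03 (SE 0.48, adjusted p = 0.0207). Cma1 read 0.75, -3.65 and -3.65 against 3.17, 2.84 and 2.84, with no counts in B6 replicates 2 and 3, and its call was lost without replicate 1 of the MRL mice or replicates 2 or 3 of the B6 mice (adjusted p up to 0.0684). That of Mcpt4 was lost without replicates 1 or 3 of the MRL mice or replicates 1 or 3 of the B6 mice (adjusted p up to 0.108). The eosinophil lectin Siglecf did not pass the test (-3.14 (SE 1.03, adjusted p = 0.102)) and was called lower without MRL replicate 2 (-4.94 (adjusted p = 7.8e-05)).

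Adipocyte genes were higher in MRL replicates 1 and 3. The summed level of 6 white adipocyte markers was 66.2, 171 and 141 CPM in B6 and 2692, 181 and 1560 CPM in MRL mice, so that MRL replicate 2 lay just above the highest B6 library and the other MRL mice far above. The ratio of the group means was 11.7 (exact permutation test, 2-sided, p = 0.1, which is the lowest value 3 against 3 can give). In the other groups the lowest and highest library read 142 and 453 CPM (saline B6), 140 and 693 (saline MRL), 55.5 and 1065 (ECM B6), 117 and 729 (ECM MRL), 535 and 2025 (uninjured B6) and 70.9 and 1059 CPM (uninjured MRL). The B6 PE libraries thus lay below all uninjured B6 libraries, and 2 of the MRL PE libraries lay above all uninjured MRL libraries.

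Of 13 adipokine genes 2 rose (Lep and Sncg), of 24 genes of lipid droplets, lipolysis and fatty acid uptake 3 rose (Cidea, Plin4 and Abhd5) and 1 fell (Fabp5), and of 20 genes of fatty acid and triglyceride synthesis 0 were called, beside 1.60% of all genes called higher. The medians were 2.86, 1.89 and 2.60 against -0.02 over all genes, and 9, 16 and 14 members were higher at an unadjusted p under 0.05 (limma). Without MRL replicate 2, 9, 19 and 17 were called higher, beside 10.6%, and with the block 2, 7 and 4, beside 3.28%. In uninjured muscle the same medians were -1.28, -0.80 and -0.33, with 0 members called in either direction (2, 1 and 0 at an unadjusted p under 0.05), and with saline they were 0.20, 0.54 and 0.48.

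The window around the start of Lep, the leptin gene, is shown because it was the only one of the 116 risen genes with a window that held the C/EBP motif, named for a family of factors known to act in adipocytes (RefSeq, GRCm38.p6, chr6:29059971-29060270, plus strand, motif in capitals and beginning 55 bases before the start). The motif was also found in 1 of 174 genes called lower and in 35 of 10444 tested.
Lep: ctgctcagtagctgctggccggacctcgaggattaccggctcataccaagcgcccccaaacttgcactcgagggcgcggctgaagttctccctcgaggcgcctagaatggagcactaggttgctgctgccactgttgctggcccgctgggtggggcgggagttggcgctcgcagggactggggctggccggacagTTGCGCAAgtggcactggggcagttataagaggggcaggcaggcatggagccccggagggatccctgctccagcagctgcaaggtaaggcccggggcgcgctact

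Lep (chromosome 6, 29060216 to 29073877 on GRCm39) read 0.68, 2.14 and 1.56 in B6 and 7.74, 3.87 and 7.23 in MRL mice. All MRL libraries were above all B6 libraries, MRL replicate 2 by less than the others. It rose by 4.82 (SE 1.27, adjusted p = 0.0405), and its call was lost in each fit without a library other than MRL replicate 2, with adjusted p up to 0.244. Without MRL replicate 2 it was at 6.03 (adjusted p = 0.00253). The strain differences elsewhere were 1.46 with saline (adjusted p = 0.679), 1.34 with ECM (0.687) and -0.09 in uninjured muscle (0.993), and the PE difference minus the saline one was 3.36 (SE 1.80, adjusted p = 0.988), or 4.57 (adjusted p = 0.154) without MRL replicate 2.

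Cidea, a lipid droplet protein of brown and beige adipocytes, read -0.68, -0.31 and -1.01 in B6 and 6.60, 2.08 and 7.27 in MRL mice and rose by 5.99 (SE 1.55, adjusted p = 0.0372). The groups did not overlap, and the call held only without MRL replicate 2 among the fits without 1 library (adjusted p up to 0.200). Ucp1, the uncoupling protein of brown fat, read -1.58, -2.60 and -2.75 against 4.49, 1.15 and 6.77. It too was higher in all 3 MRL libraries but did not pass the test (6.45 (SE 1.81, adjusted p = 0.0563)), and was called without MRL replicate 2 (7.94 (adjusted p = 0.00537)) and with the block (adjusted p = 0.0389). Of 9 measured brown and beige adipocyte genes, 1 rose (Cidea) and 0 fell, with a median of 0.43, beside 1.60% of all genes called higher. Prdm16, Ppargc1a and Zic1 of this list did not pass the test (limma, adjusted p = 0.882, 0.542 and 0.401). Plin4, a lipid droplet coat protein, rose by 2.26 (SE 0.59, adjusted p = 0.0386), Abhd5, an activator of lipolysis, by 0.95 (SE 0.23, adjusted p = 0.0288) and Sncg by 4.31 (SE 0.99, adjusted p = 0.0183), calls that were each lost without MRL replicate 1 or 3 or B6 replicate 1, that of Plin4 also without B6 replicate 2, that of Abhd5 without any B6 library and that of Sncg also without B6 replicate 3 (adjusted p up to 0.284).

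Adipoq, the adiponectin gene, read 3.94, 5.24 and 4.85 in B6 and 9.32, 5.49 and 8.49 in MRL mice. MRL replicate 2 lay close to the B6 libraries and the difference did not pass the test (3.09 (SE 1.16, adjusted p = 0.149)), but it was called without that library (4.23 (adjusted p = 0.014)). Scd1, which makes monounsaturated fatty acids, read 7.26, 8.49 and 7.60 against 13.97, 9.77 and 13.82. Each MRL library exceeded each B6 library, at 4.74 (SE 1.36, adjusted p = 0.0621), and Scd1 was called without MRL replicate 2 (6.11 (adjusted p = 0.00335)) and with the block (adjusted p = 0.045). The same held without MRL replicate 2 for fatty acid synthase Fasn (3.70 (adjusted p = 0.0411)), the triglyceride enzyme Dgat2 (4.99 (adjusted p = 0.00291)), the lipases Lipe and Pnpla2 (4.50 (adjusted p = 0.00474) and 3.15 (adjusted p = 2.0e-04)), Fabp4 (3.54 (adjusted p = 0.004)) and Pck1 (5.91 (adjusted p = 0.0062)), none of which was called with all libraries (adjusted p = 0.293, 0.0732, 0.1, 0.0727, 0.104 and 0.0888), and of which the block called Pnpla2 (adjusted p = 0.0287).

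The adipocyte transcription factors differed less. None of 10 was called with all libraries by limma (5 at an unadjusted p under 0.05), and the median was 0.92. Pparg, the main regulator of adipocyte formation, read 3.24, 3.31 and 3.12 in B6 and 5.40, 4.11 and 5.18 in MRL mice, at 1.67 (SE 0.74, adjusted p = 0.226) and 2.07 (adjusted p = 0.0731) without MRL replicate 2. Cebpa was at 1.77 (SE 0.88, adjusted p = 0.285) and 2.20 (adjusted p = 0.109). For both genes every MRL library lay above every B6 library, yet neither passed the test in either fit. Srebf1, which drives lipid synthesis genes, was called only in the latter of these fits (1.33 (SE 0.54, adjusted p = 0.188) and 2.04 (adjusted p = 0.00571)).

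**Figure D5:**
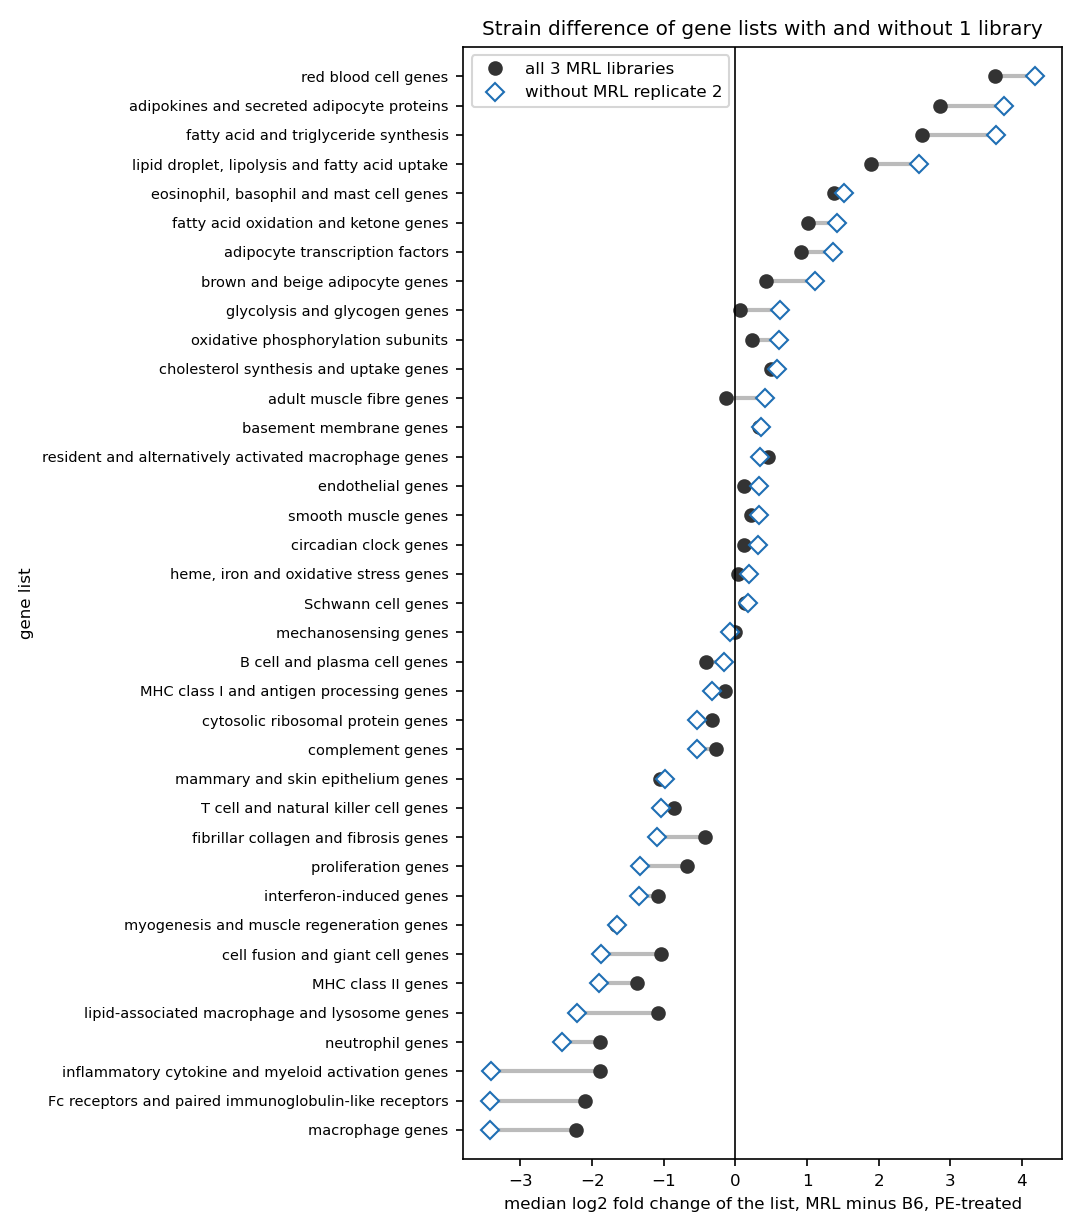
Median log2 fold change (MRL minus B6) of 37 gene lists with PE, with all 3 MRL libraries and without MRL replicate 2. Without it, adipocyte and lipid lists move further above 0 and macrophage, inflammatory and Fc receptor lists further below, while the red blood cell list is high in both.

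Other metabolic lists held few called genes. Of 28 fatty acid oxidation and ketone genes, 0 were called with all libraries (15 higher at an unadjusted p under 0.05), the median was 1.01, and 18 were called higher and 2 lower without MRL replicate 2, beside 10.6% and 14.1% of all genes (7 higher with the block, beside 3.28%). Of 25 cholesterol synthesis and uptake genes, 3 rose, beside 1.60% of all genes. Among them were Mvk (1.02 (SE 0.23, adjusted p = 0.0167)) and Nsdhl (1.93 (SE 0.50, adjusted p = 0.0379)), enzymes of the pathway from mevalonate to cholesterol. Their groups did not overlap, and their calls were lost without MRL replicate 1 or 3 or B6 replicate 1 or 2 (that of Nsdhl also without B6 replicate 3, adjusted p up to 0.252). The 81 subunits of oxidative phosphorylation gave 0 calls (3 at an unadjusted p under 0.05) and a median of 0.23, and 27 were called higher without MRL replicate 2, beside 10.6% of all genes. For the 30 glycolysis and glycogen genes the numbers were 0, 0.07 and 7, with 4 at an unadjusted p under 0.05. MRL replicate 2 held the fewest fibre transcripts, and the medians of both lists were lowest in replicate 2 of each strain, as was that of the adult fibre genes. From the mean of each gene over the 6 libraries, the oxidative phosphorylation median was 0.01, -0.58 and 0.18 in B6 and 0.45, -0.67 and 0.57 in MRL mice, the glycolysis median 0.19, -0.64 and 0.37 and 0.58, -1.02 and 0.64, and the adult fibre median 0.31, -0.67 and 0.54 and 0.45, -1.26 and 0.53. The median log2 fold change of the adult fibre genes was -0.13, or 0.42 without MRL replicate 2, and the part of fibre content in these calls was not tested.

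Red blood cell genes rose in PE-treated MRL mice, 6 of 7 by the test, beside 1.60% of all genes, with a median log2 fold change of 3.63. Hba-a1, an alpha globin gene, read 4.07, 4.74 and 3.98 in B6 and 11.21, 8.27 and 9.62 in MRL mice. The groups did not overlap, MRL replicate 1 was highest, and it rose by 5.44 (SE 0.80, adjusted p = 2.0e-04) in every fit. The beta globin Hbb-bs rose by 4.12 (SE 0.76, adjusted p = 0.00264) in every fit as well. The globin copies are near-identical, so single values are uncertain, but the sum of the Hba pair was 38.9, 59.4 and 40.1 CPM in B6 and 2510, 373 and 836 CPM in MRL mice and that of the Hbb pair 33.2, 56.6 and 29.4 and 1574, 291 and 565 CPM.

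Slc4a1, the anion exchanger of the red cell membrane (chromosome 11, 102239650 to 102257029), had no counts in the B6 libraries and read 0.55, -0.24 and -0.70 in MRL mice. It was at least 7.53-fold higher (adjusted p = 0.00779), a call lost without MRL replicate 1 (adjusted p = 0.0605). In uninjured muscle it was lower in MRL mice (-2.91, adjusted p = 0.0344), and the difference between these strain differences passed the test (6.43 (SE 1.03, adjusted p = 0.0374)), but in only 1 of 6 fits without a library, that without MRL replicate 2 (adjusted p = 0.0675 to 0.193 in the others). Alas2, the heme synthesis enzyme of red cell precursors, rose by 3.77 (SE 0.81, adjusted p = 0.011) and Hbb-bt by 3.63 (SE 0.75, adjusted p = 0.00784). Their calls were lost without MRL replicate 1 or B6 replicate 1 (adjusted p up to 0.0960). The summed level of 5 red blood cell markers was 72.9, 118 and 70.3 CPM in PE-treated B6 mice, below the 140 to 2902 CPM of all other B6 libraries, and 4126, 671 and 1417 CPM in PE-treated MRL mice, against 293 to 2492 CPM in other MRL libraries. How much blood each muscle held was not measured.

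Of 31 heme, iron and oxidative stress genes, 3 rose and 0 fell, beside 1.60% and 1.74% of all genes. Without MRL replicate 2, 6 were called higher and 7 lower, beside 10.6% and 14.1% of all genes. With the block it was 3 and 3, beside 3.28% and 4.75%. Besides Alas2, the risen genes with all libraries were Cp and Alad. Cp, the gene of ceruloplasmin, a copper protein that oxidizes iron (chromosome 3, 20011090 to 20063930), read 3.79, 4.66 and 4.33 in B6 and 5.86, 7.08 and 5.33 in MRL mice. All MRL libraries were above all B6 libraries, and here MRL replicate 2 was the highest. It rose by 1.83 (SE 0.36, adjusted p = 0.00449), was called in each fit without 1 library, and stood at 1.08 with saline (adjusted p = 0.153), 0.33 with ECM (0.723) and -0.05 in uninjured muscle (0.981). Alad, the enzyme after Alas2 in heme synthesis, read 3.68, 3.61 and 3.46 against 6.28, 5.0 and 6.13. It rose by 2.22 (SE 0.27, adjusted p = 1.7e-05) and was called with saline too (1.99, adjusted p = 6.9e-05). Of the 31 listed genes, 1 was called higher with saline, 1 with ECM and 1 in uninjured muscle, beside 1.07%, 1.27% and 1.35% of all genes. With ECM, 1 was called lower, beside 1.38%. Hmox1, which breaks heme down, read 5.72, 6.74 and 4.96 against 3.31, 6.40 and 3.22, with MRL replicate 2 among the B6 libraries, and did not pass the test (-1.50 (SE 0.59, adjusted p = 0.171)) except without that library (-2.54 (adjusted p = 1.5e-04)) and with the block (adjusted p = 0.012).

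Part of the interferon-induced genes fell in PE-treated MRL mice. Of 66 members, 13 fell and 2 rose, beside 1.74% and 1.60% of all genes, with a median of -1.08. In the other treatments 18 (saline), 4 (ECM) and 7 (uninjured) were called lower, beside 1.45%, 1.38% and 1.25% of all genes. The medians there were -1.21, -0.66 and -0.86. Leaving out MRL replicate 2, 30 were called lower and 3 higher, beside 14.1% and 10.6% of all genes, and with the block 27 and 2, beside 4.75% and 3.28%. Trim30d, Slfn8, Pyhin1 and Mnda fell, at -4.40, -4.50, -3.34 and -3.15 in every fit without 1 library (adjusted p = 5.0e-05, 3.4e-04, 0.00374 and 1.6e-04).

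Ifit3, a member of the family of RNA-binding antiviral proteins, read 4.06, 5.16 and 4.81 in B6 and 2.32, 2.79 and 2.64 in MRL mice. The groups did not overlap, and MRL replicate 2 was the highest MRL library but well below B6 mice. Ifit3 fell, at -2.10 (SE 0.54, adjusted p = 0.0379), Ifit1 at -1.65 (SE 0.45, adjusted p = 0.0498), Rsad2 at -2.05 (SE 0.50, adjusted p = 0.0261) and Mx1 at -2.47 (SE 0.55, adjusted p = 0.0133), and each of these calls was lost without MRL replicate 1 or 3 or B6 replicate 2, all but that of Mx1 without B6 replicate 3, and that of Ifit3 also without B6 replicate 1 (adjusted p up to 0.214). Isg15 (-1.56 (SE 0.44, adjusted p = 0.0566)) and the transcription factor Irf7 (-1.31 (SE 0.52, adjusted p = 0.171)) did not pass the test, and Isg15 was called without MRL replicate 2 (-1.81 (adjusted p = 0.0101)) and with the block (adjusted p = 0.0187). The risen members were Ifi202b, at 5.94 (SE 0.67, adjusted p = 6.4e-06), and Ifi44l, which had no counts in B6 mice, read 1.67, 2.24 and 1.22 in MRL mice and was at least 28-fold higher (adjusted p = 1.7e-05). Ifna2, an interferon gene with many near copies, likewise had no counts in B6 mice and was at least 20.1-fold higher (adjusted p = 2.5e-06).

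The strains carry different haplotypes of the major histocompatibility complex (MHC), and the transcripts were quantified against the B6 reference, so the MHC values are uncertain and the part of mapping was not tested. Of 28 class I and antigen processing genes 4 fell and 1 rose, beside 1.74% and 1.60% of all genes. H2-D1, a class I gene, read 9.55, 10.43 and 9.22 in B6 and 5.72, 7.23 and 5.65 in MRL mice, without overlap, and fell by 3.53 (SE 0.42, adjusted p = 1.3e-05) in every fit. H2-Q6 and H2-Q7 fell, at -4.85 and -3.82 and H2-Q1 rose by 4.74 (adjusted p = 6.6e-07, 7.1e-06 and 5.4e-05), and all 3 were called in every fit. H2-M2 fell by 4.44 (SE 1.10, adjusted p = 0.0289) and was not called without any single library but MRL replicate 2 (adjusted p up to 0.231). B2m, the class I light chain, was at 0.00 (SE 0.47, adjusted p = 0.998). Of 12 class II genes, 1 fell (H2-DMb1, -4.10 (SE 0.71, adjusted p = 0.00132)) and 1 rose (H2-Ea-ps, 8.02 (SE 0.64, adjusted p = 7.5e-08)), with a median of -1.38, and 8 were called lower without MRL replicate 2 and 5 with the block, beside 14.1% and 4.75% of all genes. With saline, ECM and no injury, 4, 5 and 5 class I genes and 1, 2 and 1 class II genes were called lower. The shares of all genes called lower there were 1.45%, 1.38% and 1.25%. In each of these treatments 1 gene of each list was called higher, beside 1.07%, 1.27% and 1.35% of all genes.

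Of 24 Fc receptor and paired immunoglobulin-like receptor genes, 3 fell and 0 rose, beside 1.74% of all genes called lower, with a median of -2.10. Without MRL replicate 2, 20 and 1 were called lower and higher, beside 14.1% and 10.6% of all genes (14 lower with the block, beside 4.75%). Lilra6 read 0.74, 2.26 and 0.59 in B6 and -3.65, -3.65 and -3.47 in MRL mice. All MRL libraries were at or near 0, MRL replicate 2 included, and it fell by 4.79 (SE 0.83, adjusted p = 0.00144) in every fit. Pirb, an inhibitory receptor of myeloid cells, fell, at -4.29 (SE 0.86, adjusted p = 0.00605) and Cd300ld at -4.07 (SE 1.04, adjusted p = 0.0339), and these calls were lost without MRL replicate 1 or 3, that of Cd300ld also without any B6 library (adjusted p up to 0.268). Of 22 complement genes only C1qb fell (-2.10 (SE 0.52, adjusted p = 0.0278)), beside 1.74% of all genes. Its call did not hold without replicates 1 or 3 of the MRL mice or replicates 1 or 2 of the B6 mice (adjusted p up to 0.161). Its partners C1qa and C1qc were at -0.95 and -1.32 (adjusted p = 0.347 and 0.147).

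Of 22 T cell and natural killer cell genes, 2 fell, both chains of the CD3 complex, beside 1.74% of all genes. Cd3d read 1.39, 1.36 and 1.66 in B6 and -2.11, -0.19 and -0.31 in MRL mice, without overlap, and fell by 2.34 (SE 0.48, adjusted p = 0.00708), a call lost without MRL replicate 1 (adjusted p = 0.0545). Cd3e fell by 2.66 (SE 0.65, adjusted p = 0.0274), lost without replicates 1 or 3 of the MRL mice or replicates 2 or 3 of the B6 mice (adjusted p up to 0.164). Cd4 and Cd8a were at -0.16 and -0.93 (adjusted p = 0.872 and 0.377). The 14 B cell and plasma cell genes gave 0 calls, with 3 at an unadjusted p under 0.05 (limma).

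Fibrosis genes gave no call with all libraries. Of 43 members, 9 were lower and 0 higher at an unadjusted p under 0.05 (limma), and the median was -0.43. The fit without MRL replicate 2 called 21 lower, beside 14.1% of all genes, and the fit with the block 2, beside 4.75%. Col1a1, the main collagen of scars, read 10.57, 11.21 and 10.67 in B6 and 9.09, 12.10 and 8.45 in MRL mice. MRL replicate 2 was the highest of the 6 libraries and the other MRL mice the lowest, at -0.93 (SE 0.73, adjusted p = 0.524) and, without MRL replicate 2, -2.04 (adjusted p = 0.0184). Acta2, the actin of myofibroblasts and smooth muscle, was at -0.03 (SE 0.35, adjusted p = 0.977) and -0.15 (adjusted p = 0.811). The basement membrane collagen Col4a1 was at 0.83 (SE 0.32, adjusted p = 0.16), with every MRL library above every B6 library, and was called without MRL replicate 2 (1.09 (adjusted p = 0.0228)).

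Muscle genes did not pass the test. None of 38 adult fibre genes was called in any direction, and none had an unadjusted p under 0.05. None of 28 myogenesis and muscle regeneration genes was called, but 15 were lower at an unadjusted p under 0.05, and the median was -1.67. Myh8, the neonatal myosin of regenerating fibres, read 7.64, 6.22 and 7.85 in B6 and 2.20, 4.52 and 3.76 in MRL mice. Each MRL library was below each B6 library, at -3.74 (SE 1.23, adjusted p = 0.102), and it was called without MRL replicate 2 (-4.26 (adjusted p = 0.0301)). The embryonic myosin Myh3 was at -2.56 (SE 1.27, adjusted p = 0.279) without overlap, and the differentiation factor Myog, whose groups overlapped through MRL replicate 3, at -1.98 (SE 0.85, adjusted p = 0.212). The mechanosensing genes Piezo1 and Yap1 were at 0.63 and 0.02 (adjusted p = 0.312 and 0.974), and 0 of 22 were called, with 2 at an unadjusted p under 0.05.

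Marker sums of other tissues were measured because neighbouring tissue could have been taken with the muscle. The mammary and skin epithelium sum was 157, 192 and 138 CPM in B6 and 3.67, 72.2 and 159 CPM in MRL mice (7 of 10 markers were in the table), lowest in MRL replicate 1, and it did not follow the adipocyte sum. The brown adipocyte sum was 68.3, 33.6 and 78.1 CPM against 221, 36.2 and 400 CPM, and the endothelial sum 158, 138 and 196 CPM against 326, 158 and 288 CPM, both highest in MRL replicates 1 and 3. Their part in the adipocyte results was not tested. In uninjured muscle the brown adipocyte sum was 201 to 789 CPM in B6 and 191 to 329 CPM in MRL mice. None of the endothelial, Schwann cell, smooth muscle or epithelial lists held a called gene, with 6, 2, 2 and 1 members at an unadjusted p under 0.05 (limma). The fit without MRL replicate 2 called 6, 0, 1 and 0 of them higher and 2, 2, 0 and 0 lower, beside 10.6% and 14.1% of all genes.

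Part of the ribosomal protein genes fell, in equal number in each treatment. Of 82 members 14 fell with PE and 0 rose, and 14, 14 and 14 were called lower with saline, ECM and no injury. The shares of all genes called lower were 1.74% with PE, 1.45% with saline, 1.38% with ECM and 1.25% in uninjured muscle. Rplp0, a stalk protein of the large subunit, read 9.20, 9.09 and 9.15 in B6 and 4.25, 6.06 and 4.86 in MRL mice. The B6 libraries were nearly equal, and all MRL libraries were well below them, at -4.09 (SE 0.31, adjusted p = 2.8e-08). Rps2 fell, at -5.37 (SE 0.56, adjusted p = 2.3e-06) and Rps7 at -3.42 (SE 0.23, adjusted p = 6.5e-09), while Rpl10, Rpl10a and Rpl11 were at -0.02, -0.26 and -0.17 and did not pass the test. All but Rpsa were called in every fit without 1 library, and Rpsa (-0.74 (SE 0.18, adjusted p = 0.0237)) was lost without replicates 1 or 3 of the MRL mice or replicates 1, 2 or 3 of the B6 mice (adjusted p up to 0.176). Ribosomal protein genes have many processed copies, so these values are uncertain.

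Among 19 clock genes only Hlf rose (1.74 (SE 0.40, adjusted p = 0.0183)), beside 1.60% of all genes called higher. The call was lost without replicates 1 or 3 of the MRL mice or replicates 1 or 2 of the B6 mice (adjusted p up to 0.108). Per1, Per2 and Per3 were at 0.26, 0.30 and 0.49. Of 33 proliferation genes 0 were called (4 at an unadjusted p under 0.05, limma), the median was -0.68, and 13 were called lower without MRL replicate 2, beside 14.1% of all genes. Mki67, a mark of dividing cells, read 3.65, 4.18 and 3.27 in B6 and 1.48, 4.46 and 2.54 in MRL mice, highest in MRL replicate 2 and lowest in the other MRL mice, at -0.87 (SE 0.61, adjusted p = 0.467) and -1.69 (adjusted p = 0.0323) without that library.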

How the data were processed

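Bulk RNA of frozen mouse quadriceps was sequenced after poly(A) selection with an added ERCC spike-in, 3 libraries per group in 24 libraries, per the labels. The authors quantified transcripts with kallisto against Ensembl mouse cDNA (build GRCm39, per the submitters' processing notes), summed them to genes with tximport, kept genes above 1 CPM in at least 3 libraries, applied TMM scaling in edgeR and deposited log2 CPM with a prior count of 2. The reference is of the B6 strain, and the effect of mapping MRL reads to it was not tested. Each library came from a separate mouse. At the mean effective library size of 25149678 reads, low levels are the least precise, and 3 mice per group limit every comparison.

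From the deposited log2 CPM, 14159 genes were fitted with limma 3.58.1 in R 4.3.3, with 1 coefficient for each of 8 groups over 24 libraries. Variances were moderated by empirical Bayes along a trend with level, and 2-sided p-values were adjusted by Benjamini-Hochberg (called at an adjusted p under 0.05). The values are normalized, so no count model was used. A row with no symbol did not enter. Summed levels of markers were compared by an exact permutation test. The members of the comparison, the gene lists (37) and the tests were chosen with earlier results of these data known. Genes named were up to 15 higher and 15 lower by log2 fold change among called genes without overlap (symbols of predicted genes and pseudogenes left out), those the study names for PE-treated mice of both strains, the first 3, the called and up to 4 most different members of each list, and up to 10 of smallest p between treatments. Cxcl3 and Ptgs2 are shown for their windows and Rps2 for its copies, chosen after their values were seen, and Gm13248 is named as a called gene. Some called members of the lists are not reported here. Same-numbered PE libraries deviated together (correlation of residuals 0.105, 0.532 and 0.439 for replicates 1, 2 and 3, each above 0.1), so replicate number was taken to pair them and was fitted as a block as an alternative. The labels do not say what a number marks, and MRL replicate 1 deviated more with B6 replicate 3 (0.398) than with B6 replicate 1. With saline the same correlations were 0.234, 0.225 and -0.221, with ECM -0.071, 0.0975 and -0.009, and in uninjured muscle 0.202, 0.376 and 0.0468. The pairing was thus drawn from the values it was fitted to, and calls with the block are no independent support. The fit was tested on simulated data in which each gene had the same spread in all libraries. That test did not cover a library that stands apart, such as MRL replicate 2. Python 3.11.15, pandas 2.3.3, SciPy 1.17.1 and matplotlib 3.10.9 made summaries and figures. Sequences came from RefSeq (GRCm38.p6) and positions from the annotation of GRCm39. Alternatives were log2(CPM + 1), a minimum mean log2 CPM of 1, equal totals, quantile normalization, the compared libraries alone, library weights, no variance trend, the block and leaving out each PE library. The fit without MRL replicate 2 was picked for the single genes after the values were seen.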

Additional observations from a re-analysis of the deposited data

Results flagged for a closer look

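The strain difference with PE differed from that in uninjured muscle for 3 genes by the test of the difference itself (limma, adjusted over 14159 genes). Slc4a1 was higher in MRL mice with PE and lower in uninjured MRL mice (-2.91, adjusted p = 0.0344), and the difference of the log2 differences was 6.43 (SE 1.03, adjusted p = 0.0374). It had no counts in PE-treated B6 mice, so the fitted value depends on the prior count. Pydc4, a relative of the interferon-inducible Pyhin genes, read 2.89, 3.85 and 2.94 in PE-treated B6 and 0.61, 0.03 and 0.39 in PE-treated MRL mice. All MRL libraries were below all B6 libraries, with a log2 fold change of -2.88 (SE 0.30, adjusted p = 2.1e-06) against 0.16 in uninjured muscle (adjusted p = 0.922), and the difference was -3.04 (SE 0.42, adjusted p = 0.0093). For Gm13248, a predicted gene, the difference was -3.77 (SE 0.63, adjusted p = 0.0393). Without MRL replicate 2, Pydc4 was at -2.89 (adjusted p = 4.7e-04) and Slc4a1 at 6.49 (adjusted p = 0.00148) in this test. Pydc4 was called in all 6 fits without 1 library (adjusted p up to 0.0342). Slc4a1 and Gm13248 were called in only 1 of these, that without MRL replicate 2, and their adjusted p lay between 0.0675 and 0.193 and between 0.0853 and 0.193 in the others.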

How the results depend on the processing

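The 474 genes called between PE-treated strains became 242 with a minimum mean log2 CPM of 1 (11617 tested), 113 when the 6 libraries were fitted alone, 6477 with library weights, 1136 with the replicate block that pairs same-numbered mice, 2270 without replicate 2 of both PE groups (an alternative chosen after seeing the data), and 234 to 3490 without 1 library. With the saline strain difference taken off, the count of 0 became 2 on log2(CPM + 1), 1909 with weights, 348 without both replicates 2 and 0 to 625 without 1 library. With ECM it became 1, 1012, 99 and 0 to 269. Against uninjured muscle the 3 genes became 7 on log2(CPM + 1), 1 with the minimum level, 5 with equal totals, 7 with quantile normalization, 0 for the compared libraries alone (limma, 1411 at an unadjusted p under 0.05), 3001 with weights, 9 with the block, 865 without both replicates 2 and 1 to 1354 without 1 library. In all of these, the largest count without 1 library was that without MRL replicate 2, the library with the lowest weight, and the cause was not tested. Leaving out MRL replicate 2 also raised the saline calls from 356 to 493, through the spread shared by all groups. That library was singled out from these same values.

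List medians moved beyond the spread between replicates in 13 of 555 values. The median of adipocyte transcription factors was 1.44 with weights, 1.39 without both replicates 2 and 0.46 to 1.37 without 1 library, and that of fatty acid synthesis 4.02 and 4.08 in the first 2 of these. The endothelial median was 0.43 with weights, the resident macrophage median 0.07 with the minimum level and 0.35 to 0.99 without 1 library, and the T cell median -0.42 on log2(CPM + 1) and -0.28 with the minimum level. Without 1 library, the cholesterol median ranged from 0.38 to 0.73 and the ribosomal one from -0.53 to -0.22. Genes near 0 changed sign without 1 library, Acta2 from -0.20 to 0.17, B2m from -0.33 to 0.34, Cd4 from -0.48 to 0.08, Ocstamp from -0.21 to 0.47, Retnla from -2.84 to 1.26, Rpl10 from -0.17 to 0.14 and Yap1 from -0.20 to 0.42. Acta2 (0.06) and Ocstamp (0.00) did so with weights, B2m (0.12) and Cd4 (0.06) without both replicates 2, and Yap1 with equal totals (-0.09) and quantile normalization (-0.04). Equal totals moved the median of all genes by -0.11. Of the 84 called genes among those named, 39 were called in every fit without 1 library, and 124 of the named genes were called without MRL replicate 2 and 103 with the block, which ended no call. Fitting the 6 PE libraries alone ended 64 of these 84 calls, the most of any alternative.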

Other observations

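Further genes read in the order of libraries seen for macrophage genes, with MRL replicate 2 beside the B6 mice. Il7r, the interleukin-7 receptor, read 6.12, 7.29 and 5.83 in PE-treated B6 and -3.65, 6.98 and 0.48 in PE-treated MRL mice. MRL replicate 1 had no counts and MRL replicate 2 lay within the B6 range, at -5.15 (SE 1.83, adjusted p = 0.127) and -8.00 (adjusted p = 6.3e-04) without MRL replicate 2. Egr2, a transcription factor of macrophages and Schwann cells, read 5.13, 6.13 and 4.35 against 1.13, 6.34 and 1.92, at -2.07 (SE 0.93, adjusted p = 0.231) and -3.68 (adjusted p = 4.6e-04). The opposite order was seen for Mmd, which read 4.46, 5.16 and 4.75 against 8.44, 5.38 and 7.46, at 2.31 (SE 0.75, adjusted p = 0.0974) and 3.16 (adjusted p = 0.004), and for Cd1d1, which presents lipids to natural killer T cells, at 2.75 (SE 1.04, adjusted p = 0.15) and 3.74 (adjusted p = 0.0148).

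Cish, an inhibitor of cytokine signalling, read 1.98, 3.18 and 3.35 in B6 and 6.40, 4.11 and 7.10 in MRL mice. All MRL libraries were above all B6 libraries, and Cish rose by 3.04 (SE 0.66, adjusted p = 0.0117), a call lost without replicates 1 or 3 of the MRL mice or replicate 1 of the B6 mice (adjusted p up to 0.0970). Lims2, an adaptor of integrin adhesions, read 2.94, 3.16 and 3.09 against 4.84, 3.79 and 4.31 and rose by 1.25 (SE 0.26, adjusted p = 0.00718), lost without replicate 1 of the MRL mice (adjusted p = 0.0661). Oxtr, the oxytocin receptor, read -1.46, 1.82 and -0.51 against 5.63, 2.93 and 5.43 and rose by 4.71 (SE 1.26, adjusted p = 0.0438), lost without replicates 1 or 3 of the MRL mice or replicates 1 or 3 of the B6 mice (adjusted p up to 0.229). Its strain difference with saline was 0.08 (adjusted p = 0.989).

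The libraries carried 3 first and 8 second sequencing indexes. Of the 20 libraries other than the PE-treated B6 mice and MRL replicate 2, 4 shared no index with any of these. The 2 uninjured libraries that shared none were B6 replicates 1 and 2, and the 4 that shared one were B6 replicate 3 and the 3 MRL mice, so sharing and strain were largely the same split. Gpnmb read 4.60 to 6.25 in the 7 MRL libraries that shared the first index of MRL replicate 2, and in uninjured muscle 3.57 to 5.08 in the 4 libraries that shared an index and 1.24 to 1.44 in the 2 that did not. Itgax read 2.76 to 4.14, 1.51 to 3.18 and 0.46 to 1.05 in the same libraries. Cxcl2 read -2.69 to -0.92 in the 4 uninjured libraries and -3.65 in the 2. Cd68 differed little, with 2.04 to 2.90 and 1.92 to 1.94. Spp1 did not follow sharing, with 2.43 to 5.29 and 4.52 to 4.76. MRL replicate 1 of the PE group shared no index and read 1.94 for Gpnmb and -0.66 for Itgax, and MRL replicate 3, which shared one, 5.69 and 3.60. Replicate 3 of the ECM-treated MRL mice shared none and read 4.78 for Mmp12. The part of shared indexes in these levels was not tested.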
